A study of Homo sapiens with 6 samples.

Results

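The genes of ion channels, their accessory subunits and the sodium-potassium pump were examined in MV4-11 cells with and without the WNK kinase inhibitor WNK463. Members were taken by gene symbol, for the families of potassium (*KCN*), sodium (*SCN*), calcium (*CACN*), CLC (*CLCN*), CLIC, TRP, LRRC8, P2X, anoctamin (*ANO*), acid-sensing (*ASIC*) and pump (*ATP1A*, *ATP1B*) genes, with a sum of at least 10 counts over the 6 samples. Of 20348 genes in the table, 210 carried such a symbol and 105 of these reached the count minimum. Of the other 105, 66 had no count in any sample and 39 had a sum below 10. MV4-11 is an established line of acute myeloid leukemia (AML) cells. For RNA-seq, 3 samples were left untreated (Control) and 3 received WNK463 at 1 μM over 48 h. All samples are of this same line, and no vehicle is named for the Control samples. The labels do not say whether the 3 samples of a group came from separate cultures, so p-values measure the spread between these samples, which may be technical.

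Ion channels let ions pass down their gradients, and the sodium-potassium pump spends ATP to keep sodium low and potassium high inside the cell. WNK kinases sense chloride and, through the kinases SPAK and OSR1, activate the sodium-potassium-chloride cotransporters and inhibit the potassium-chloride cotransporters, so they act on the same ions and on cell volume. In leukocytes, potassium channels set the membrane potential that drives calcium entry, LRRC8 channels release chloride and osmolytes when a cell swells, and P2X receptors open on extracellular ATP.

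The start regions of 3 potassium channel genes whose mRNA changed at least 2-fold are shown, since they give the sequence in front of the member with the smallest p among those that fell (*KCNE5*), the tandem-pore channel gene that fell at least 2-fold (*KCNK5*) and the voltage-gated channel gene with the largest rise (*KCND1*). Each is the 250 bases before the RefSeq start on GRCh38.p14, all on the minus strand, printed 5′ to 3′, at chrX:109625173-109625422, chr6:39229476-39229725 and chrX:48971845-48972094. Capitals mark the GC box, GGGCGG on either strand, a motif that Sp1-family factors can bind.
KCNE5: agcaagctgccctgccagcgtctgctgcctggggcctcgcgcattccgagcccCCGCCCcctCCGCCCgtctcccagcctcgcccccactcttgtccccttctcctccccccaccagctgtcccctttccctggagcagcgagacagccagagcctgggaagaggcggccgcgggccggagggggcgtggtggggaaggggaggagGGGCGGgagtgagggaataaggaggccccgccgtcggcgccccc
KCNK5: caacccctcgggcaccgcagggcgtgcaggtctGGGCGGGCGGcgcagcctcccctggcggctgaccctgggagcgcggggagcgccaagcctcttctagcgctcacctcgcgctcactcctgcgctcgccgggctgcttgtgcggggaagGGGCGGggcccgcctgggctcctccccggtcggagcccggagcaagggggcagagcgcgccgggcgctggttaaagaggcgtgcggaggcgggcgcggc
KCND1: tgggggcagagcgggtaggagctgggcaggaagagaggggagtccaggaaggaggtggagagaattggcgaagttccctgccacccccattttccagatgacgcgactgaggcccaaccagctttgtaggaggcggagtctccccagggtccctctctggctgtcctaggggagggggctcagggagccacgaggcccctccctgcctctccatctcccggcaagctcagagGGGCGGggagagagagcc
The window held the GC box at 3 positions for *KCNE5*, at 3 for *KCNK5*, where 2 of them overlap, and at 1 for *KCND1*. GC content was 74.0%, 77.2% and 65.6%. The motif was present in 53 of 98 RefSeq start regions of tested members (54.1%), and in 42.6% of all 35116 start regions. The latter share is not limited to genes that passed the filter on low counts, so the sets are unlike. It stood in front of members that rose and of members that fell, in 29 of 47 and 11 of 18 start regions. These matches are descriptions of letters and not of binding.

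Total counts lay between 14915745 and 17411780 per sample. The 9 listed markers of myelomonocytic AML cells were all found at 1 CPM or more in at least 1 sample, with a summed level of 942 to 999 CPM in the Control samples and 1139 to 1151 CPM in the WNK463 samples; 5 of them rose and 3 fell. CPM is the count per 1000000 counts after TMM scaling (edgeR's trimmed mean of M values). Markers of cells that channels are best known from were near 0, with a summed 0.854 to 3.02 CPM for neurons, where *SYP* alone reached 1 CPM, and 0.0610 to 0.609 CPM for heart and skeletal muscle. T cell markers summed to at most 0.0638 CPM and B cell markers to 0.274 to 1.15 CPM, and erythroid markers had no count. Among epithelial markers *EPCAM* and *CDH1* had no count, while *KRT8* and *KRT18* gave a sum of 18.5 to 20.7 CPM. The list for fibroblasts and endothelium summed to 91.6 to 105 CPM in the Control samples and 164 to 177 CPM in the WNK463 samples; *PECAM1*, which myeloid cells also express, was its only gene at 1 CPM or more, and its part in the results was not tested.

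Taken over all classes together, members rose more often than they fell after WNK463, though not in every class. Of 105 members, 73 passed the filter on low counts and were tested with edgeR's quasi-likelihood test. At an adjusted p below 0.05, 32 members were higher with WNK463 (43.8% of those tested, against 35.5% of all 11973 genes tested) and 18 were lower (24.7%, against 35.3%), while 23 did not pass. With a change of at least 2-fold as well, 11 were higher (15.1%, against 9.62% of all genes) and 5 were lower (6.85%, against 5.55%). Most of these 11 passed the filter on low counts only through their WNK463 samples. They were *KCND1*, *KCNH2*, *KCNIP2*, *CACNB4*, *CACNA2D2*, *ASIC3* and *P2RX6*. The share of 15.1% therefore depends on that filter. With 10 counts required in every sample, 4 of 57 tested members were at least 2-fold higher. The share of all genes under that filter is not given, so whether members differ from all genes there cannot be told. In 56 members (76.7%, against 73.5% of all genes) the 3 WNK463 values lay entirely above or entirely below the 3 Control values. The share at least 2-fold lower and the share without overlap were near those of all genes. The median log2 fold change of the tested members was 0.22, and that of all tested genes was 0.02. Bulk RNA does not tell fewer cells with an mRNA apart from less mRNA per cell.

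The split between rises and falls depended on the scaling. TMM factors were 0.944 to 0.951 in the Control samples and 1.05 to 1.06 in the WNK463 samples. Of the members that passed, 64.0% were higher under TMM, 73.6% under scaling to total counts, 68.8% with DESeq2 and 81.1% with limma on log2(TPM + 1). Over all genes that passed, the shares were 50.2%, 63.9%, 49.8% and 65.0% in the same order. Scaling to total counts moved the median of all tested genes by 0.15 on the log2 scale, and all fold changes here are relative to the TMM scale unless another is named.

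Large changes sat among the less abundant members. Level was taken as mean TPM (the deposited transcript level, scaled to transcript length) over the 6 samples. Of 31 tested members at 10 TPM or more, 2 were at least 2-fold higher and 1 was at least 2-fold lower; of 42 below 10 TPM, 9 were higher and 4 were lower by that much. Rises showed the same order over all genes: at least 2-fold rises were 1.77% of genes at 100 TPM or more, 3.99% from 10 to 100 TPM, 20.5% from 1 to 10 TPM and 39.7% below 1 TPM. Members held 0 of 10, 2 of 21, 5 of 23 and 4 of 19 in these bins. Falls of at least 2-fold were 4.51%, 3.87%, 8.43% and 12.8% of all genes in these bins, against 1 of 10, 0 of 21, 3 of 23 and 1 of 19 members.

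**Figure D1:**
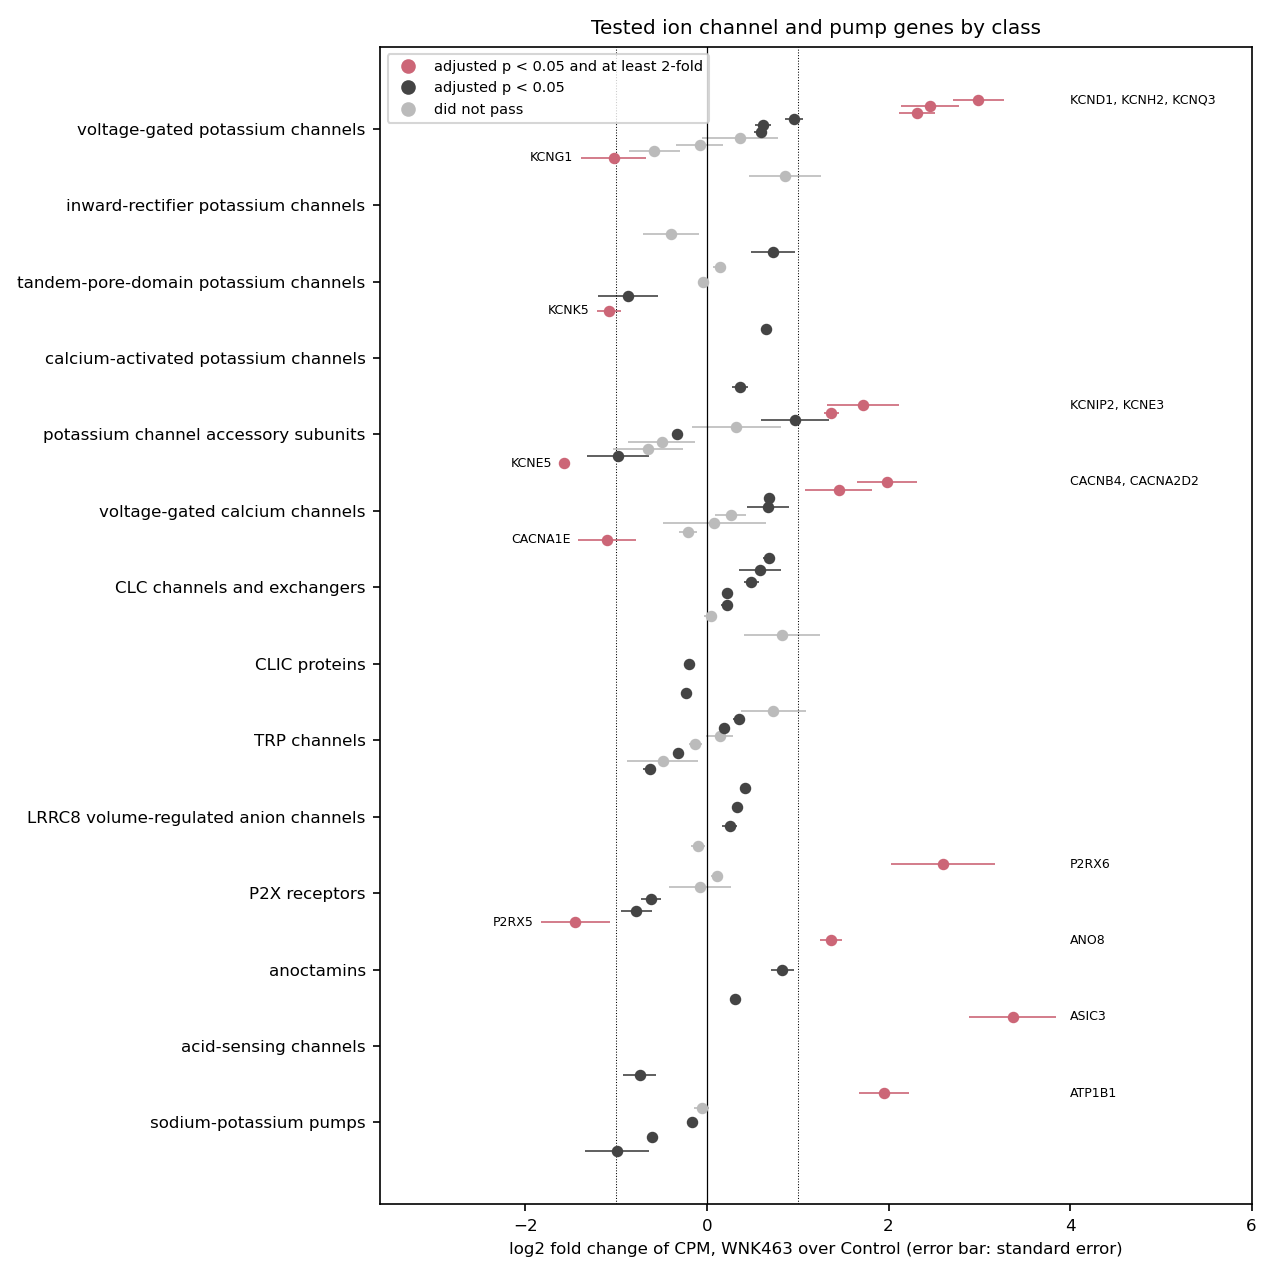
Log2 fold change of CPM, WNK463 over Control, with its standard error, for the 73 tested members in rows by class; red points passed the test with at least a 2-fold change and carry their symbols (on the right listed from the top point down), black points passed with a smaller change and grey points did not pass. The points furthest to the right are *ASIC3* and *KCND1*, and the voltage-gated potassium, CLC and anoctamin rows have most of their points to the right of 0.

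Voltage-gated potassium channels were the class with the largest log2 ratio of summed CPM on the TMM scale. Of 18 members 10 were tested, 6 rose and 1 fell, where 35.5% of all tested genes rose and 35.3% fell. *KCND1* (chromosome X, 48961378 to 48971569, minus strand), which encodes a pore subunit of rapidly inactivating A-type channels, stood at 0.913, 0.686 and 0.488 CPM in Control, against 4.53, 5.87 and 6.32 CPM with WNK463. Every WNK463 value lay above every Control value, a 7.93-fold rise (log2 fold change 2.99 ± 0.28, edgeR adjusted p = 3.8e-08). *KCNH2*, the hERG channel of cardiac repolarization, stood at 0.365, 0.892 and 0.732 CPM in Control, against 3.99, 3.14 and 3.83 CPM with WNK463. It rose 5.51-fold, again with no overlap (log2 fold change 2.46 ± 0.32, edgeR adjusted p = 1.9e-06). *KCNQ3*, a subunit of the neuronal M current, stood at 1.77, 4.18 and 2.44 CPM in Control, against 14.4, 14.1 and 12.8 CPM with WNK463. The Control samples were spread more widely than the WNK463 samples, and the rise was 4.98-fold (log2 fold change 2.31 ± 0.20, edgeR adjusted p = 1.0e-08). All 3 genes began from low levels, between 0.289 and 0.712 TPM on average in the Control samples. *KCND1* and *KCNH2* passed the filter on low counts only through their WNK463 samples.

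Voltage-gated potassium genes with higher TPM rose by smaller folds. *KCNQ1*, which pairs with KCNE subunits, had the highest TPM of the class, and stood at 27.1, 28.5 and 25.8 CPM in Control, against 43.5, 39.1 and 39.6 CPM with WNK463 (log2 fold change 0.59 ± 0.07, edgeR adjusted p = 1.6e-06). The fast channel gene *KCNC4* rose from 9.39 ± 0.417 to 18.3 ± 0.872 CPM (SD, n = 3), with a log2 fold change of 0.96, and its groups did not overlap. With limma on log2(TPM + 1) its rise was smaller, at 0.41, and did not pass without the filter on mean TPM. *KCNG1*, a modifier subunit that forms no channel alone, fell from 1.25 ± 0.190 to 0.608 ± 0.0287 CPM (log2 fold change -1.03 ± 0.36, edgeR adjusted p = 0.017); it did not pass with DESeq2 or limma, and was not past the test without Control replicate 3 (log2 fold change -0.94). Without WNK463 replicate 2 its fold was just under 2. *KCNA3*, the channel of activated T cells, had a log2 fold change of 0.36 and did not pass (edgeR adjusted p = 0.44), nor did *KCNH4* (-0.58) and *KCNQ5* (-0.08). The summed level of all 18 members was 69.8 ± 4.63 CPM in the Control samples and 119 ± 1.84 CPM in the WNK463 samples.

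Among accessory subunits of potassium channels, *KCNE5* and *KCNE3* moved in opposite directions. Both encode single-pass proteins that bind pore subunits such as KCNQ1 and change their gating; KCNE5 is known to inhibit KCNQ1 channels, and KCNE3 to hold them open. *KCNE5* (chromosome X, 109623700 to 109625172, minus strand, 1 annotated exon) stood at 190, 189 and 182 CPM in Control, against 64.4, 62.7 and 61.4 CPM with WNK463. It fell 2.97-fold with replicate values close together (log2 fold change -1.57 ± 0.05, edgeR adjusted p = 4.5e-14), and was rank 29 by p among all 11973 tested genes. *KCNE3* (chromosome 11, 74454841 to 74467729, minus strand) stood at 13.6, 15.8 and 14.1 CPM in Control, against 37.5, 37.2 and 37.2 CPM with WNK463. It rose 2.58-fold (log2 fold change 1.37 ± 0.08, edgeR adjusted p = 9.3e-11).

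The ratio of *KCNE5* to *KCNE3* within a sample, in TPM, was 15.6, 11.8 and 14.6 in Control, against 1.69, 2.08 and 2.03 with WNK463. This ratio does not depend on scaling between samples. An exact two-sided permutation test gave p = 0.10, the smallest value that 3 against 3 samples allow, and the ratio was chosen after the values were seen. *KCNE5* overlaps *ACSL4* on the same strand, and *ACSL4* went the other way, from 181 to 247 CPM (log2 fold change 0.45, edgeR adjusted p = 3.8e-07). Relative to *KCNQ1*, *KCNE5* TPM went from 14.0 ± 0.692 to 3.10 ± 0.159 and *KCNE3* TPM from 1.01 ± 0.102 to 1.61 ± 0.103.

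*KCNAB2*, a beta subunit related to aldo-keto reductases, had the highest TPM of the 47 potassium channel gene members, and stood at 721, 677 and 667 CPM in Control, against 575, 526 and 543 CPM with WNK463. It fell with no overlap between the groups (log2 fold change -0.33 ± 0.05, edgeR adjusted p = 7.8e-06). It overlaps *NPHP4* on the opposite strand, which went from 46.3 to 40.6 CPM. *KCNIP2*, a calcium-binding partner of *KCND* channels, rose 3.29-fold from a low level, with 12, 4 and 8 counts in Control, against 22, 37 and 24 counts with WNK463 (log2 fold change 1.72 ± 0.40, edgeR adjusted p = 8.6e-04). *KCNE1* rose from 0.752 ± 0.301 to 1.49 ± 0.426 CPM and *KCNMB1*, the beta subunit of the BK channel, fell from 1.72 ± 0.573 to 0.871 ± 0.127 CPM. *KCNE1* was not past the test without Control replicate 1, Control replicate 2 or WNK463 replicate 2 (log2 fold changes 0.83, 0.79 and 0.71), and *KCNMB1* was not past the test without Control replicate 3 or WNK463 replicate 1 (log2 fold changes -0.68 and -0.87). Of 9 tested accessory members 3 rose, 3 fell and 3 did not pass, near the 35.5% and 35.3% of all tested genes that rose and fell. The summed class went from 896 ± 30.6 to 656 ± 25.0 CPM, with most of the counts from *KCNAB2* and *KCNE5*.

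**Figure D2:**
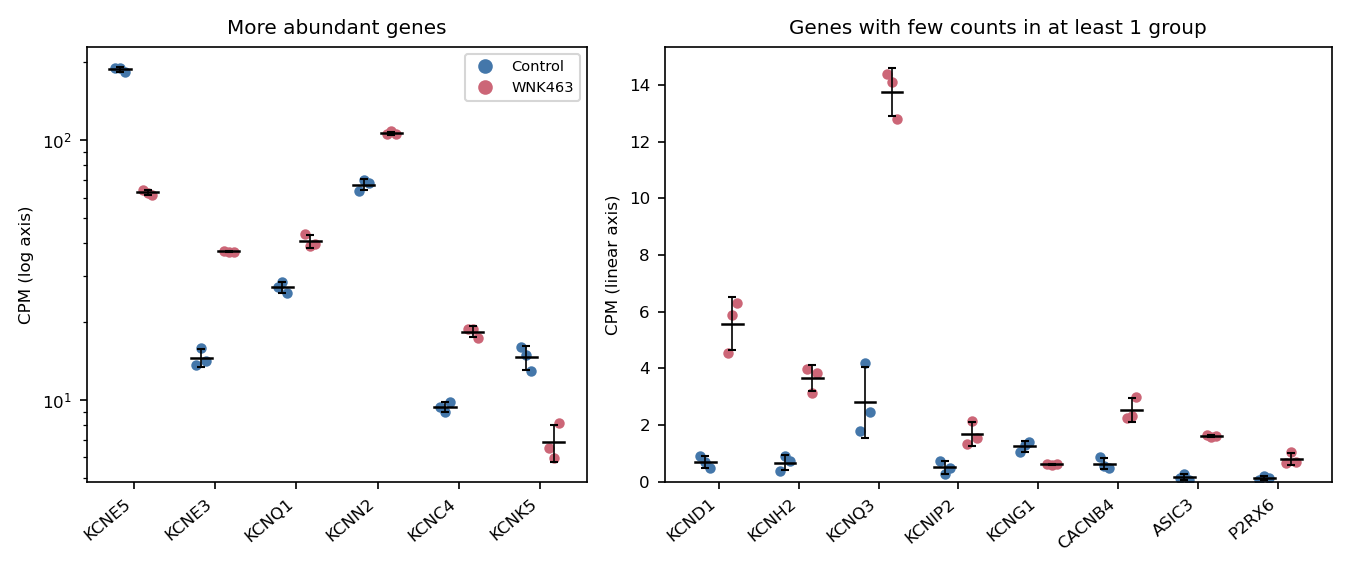
CPM in each of the 6 samples for 14 members (blue Control, red WNK463; the black line is the mean of 3 samples and the bar its SD), on a log axis for more abundant genes and on a linear axis for genes with few counts. *KCNE5* is lower and *KCNE3* higher in every WNK463 sample, and the Control values of *KCND1*, *KCNH2* and *ASIC3* lie below 1 CPM.

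Tandem-pore-domain channels carry background potassium currents. *KCNK10*, their gene with the highest TPM, had a log2 fold change of -0.04 ± 0.06 (edgeR adjusted p = 0.54), with 82.0, 75.3 and 72.7 CPM in Control, against 75.1, 71.3 and 77.0 CPM with WNK463, and *KCNK6* one of 0.14 (edgeR adjusted p = 0.062). *KCNK6* passed under total counts, at 0.29. *KCNK5*, an acid-sensitive channel linked to volume regulation, stood at 15.9, 14.9 and 12.9 CPM in Control, against 6.52, 5.99 and 8.11 CPM with WNK463. The groups did not overlap, and the fall was 2.12-fold (log2 fold change -1.08 ± 0.13, edgeR adjusted p = 1.1e-06). Without WNK463 replicate 2 the log2 fold change was -0.99, just under 2-fold. *KCNK17* rose from 2.26 ± 0.270 to 3.76 ± 0.690 CPM and *KCNK13* fell from 2.04 ± 0.611 to 1.11 ± 0.202 CPM. *KCNK17* was not past the test without WNK463 replicate 3 (log2 fold change 0.58), and *KCNK13* was not past the test without Control replicate 1, Control replicate 2, WNK463 replicate 1 or WNK463 replicate 3 (log2 fold changes -0.77, -0.73, -0.82 and -0.78). The summed class was 138 ± 4.60 CPM in the Control samples and 133 ± 5.53 CPM in the WNK463 samples.

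Both tested calcium-activated potassium channel genes rose, as did 35.5% of all tested genes. *KCNN2*, a small-conductance channel gene, stood at 63.7, 70.2 and 68.1 CPM in Control, against 105, 108 and 105 CPM with WNK463 (log2 fold change 0.65 ± 0.06, edgeR adjusted p = 8.0e-09). *KCNN4*, the intermediate-conductance channel of leukocytes and red cells, stood at 20.9, 21.2 and 17.8 CPM in Control, against 24.7, 25.0 and 27.0 CPM with WNK463 (log2 fold change 0.36 ± 0.09, edgeR adjusted p = 0.0017). In both genes each WNK463 value was above each Control value. *KCNN3* had 0, 0 and 0 counts in Control, against 5, 8 and 2 counts with WNK463, below the default filter. Set against a floor of 3 counts over the Control group, its WNK463 level was 4.80-fold higher. This value depends on the chosen floor and is not a lower limit.

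Inward-rectifier channel genes were near the detection limit. Of 7 members only *KCNJ14* and *KCNJ2* were tested, and neither passed; under total counts *KCNJ2* did, at 1.01 (log2 fold changes -0.40 and 0.86, edgeR adjusted p = 0.26 and 0.066). *KCNJ13* had 1, 0 and 0 counts in Control, against 8, 5 and 8 counts with WNK463, a ratio of summed counts of 20.1 with a 95% exact interval of 3.24 to 833 that covers counting error only. Levels in the whole class summed to 2.95 ± 0.536 CPM and 3.54 ± 0.968 CPM.

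Of 8 tested voltage-gated calcium channel genes 4 rose and 1 fell, where 35.5% of all tested genes rose and 35.3% fell. The summed class went from 119 ± 1.92 to 176 ± 2.54 CPM. *CACNA2D4*, an alpha2-delta subunit that brings channels to the membrane, gave most of these counts and stood at 91.9, 90.0 and 90.4 CPM in Control, against 145, 147 and 144 CPM with WNK463. The groups were well apart and tight (log2 fold change 0.68 ± 0.05, edgeR adjusted p = 1.0e-09). *CACNB4*, a cytoplasmic beta subunit, rose 3.94-fold from 0.630 ± 0.195 to 2.52 ± 0.418 CPM (log2 fold change 1.98 ± 0.33, edgeR adjusted p = 4.0e-05). *CACNA2D2* rose 2.74-fold from 0.505 ± 0.0378 to 1.40 ± 0.212 CPM (log2 fold change 1.45 ± 0.37, edgeR adjusted p = 0.0018). It overlaps *CYB561D2* on the opposite strand, which fell (log2 fold change -0.46), and whether the counting used strand is not given in the sources used here. Of the pore genes, *CACNA1D* (L-type) rose from 2.78 ± 0.425 to 4.42 ± 0.991 CPM but was not past the test without Control replicate 3 or WNK463 replicate 1 (log2 fold changes 0.54 and 0.48). *CACNA1E* (R-type) fell 2.14-fold from 1.83 ± 0.215 to 0.849 ± 0.105 CPM (log2 fold change -1.10 ± 0.32, edgeR adjusted p = 0.0047). *CACNA2D3* did not pass (log2 fold change -0.21, edgeR adjusted p = 0.054), nor did *CACNB2* and *CACNB3* (0.08 and 0.26), though *CACNB3* passed under total counts, at 0.41.

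Of 6 tested chloride channel and exchanger genes of the CLC family 5 rose and none fell, where 35.5% of all tested genes rose and 35.3% fell. The summed class went from 379 ± 10.7 to 470 ± 8.22 CPM. *CLCN4*, an endosomal chloride-proton exchanger, stood at 61.8, 59.0 and 66.1 CPM in Control, against 102, 98.9 and 98.2 CPM with WNK463 (log2 fold change 0.68 ± 0.06, edgeR adjusted p = 8.0e-09). *CLCN5*, its close relative in endosomes, rose from 21.8 ± 0.662 to 30.5 ± 1.92 CPM (log2 fold change 0.49 ± 0.08, edgeR adjusted p = 3.1e-05). *CLCN7*, the exchanger of lysosomes, had the highest TPM of the class, with 222, 210 and 190 CPM in Control, against 247, 237 and 243 CPM with WNK463; its rise was small with no overlap (log2 fold change 0.22 ± 0.05, edgeR adjusted p = 0.0013). *CLCN3* and *CLCN2* rose with log2 fold changes of 0.22 and 0.58. *CLCN3* was not past the test without Control replicate 1 or WNK463 replicate 1 (log2 fold changes 0.14 and 0.19), and *CLCN2* was not past the test without Control replicate 1 or WNK463 replicate 1 (log2 fold changes 0.41 and 0.49). *CLCN6* did not pass (0.04, edgeR adjusted p = 0.58), but did under total counts, at 0.20.

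*CLIC1* encodes a soluble protein of the glutathione transferase fold that can insert into membranes, and had the highest TPM of all members, at 892 ± 28.4 in the Control samples and 890 ± 21.2 in the WNK463 samples. In CPM it stood at 602, 556 and 565 CPM in Control, against 490, 509 and 501 CPM with WNK463 and fell on the TMM scale (log2 fold change -0.20 ± 0.05, edgeR adjusted p = 7.1e-04), but had a log2 fold change of -0.05 under total counts. It overlaps *DDAH2* on the same strand, which rose from 7.33 to 18.3 CPM. *CLIC4* fell likewise (log2 fold change -0.23 ± 0.06, edgeR adjusted p = 0.0014), with -0.07 under total counts. Neither passed under total counts or with limma on TPM, while both passed with DESeq2. *CLIC2* had a log2 fold change of 0.83 and did not pass (edgeR adjusted p = 0.087), but did under total counts, at 0.98.

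LRRC8 proteins assemble as hexamers of LRRC8A with LRRC8B, C, D or E into the volume-regulated anion channel, and LRRC8A is needed in every channel. *LRRC8A* did not pass, with 33.1, 38.3 and 35.1 CPM in Control, against 33.5, 30.9 and 35.0 CPM with WNK463 (log2 fold change -0.10 ± 0.08, edgeR adjusted p = 0.26). *LRRC8C* stood at 219, 246 and 271 CPM in Control, against 324, 329 and 333 CPM with WNK463; it rose with no overlap (log2 fold change 0.42 ± 0.06, edgeR adjusted p = 6.3e-06), and its Control values were spread more than its WNK463 values. *LRRC8D*, the subunit that passes larger uncharged osmolytes and drugs, stood at 131, 143 and 139 CPM in Control, against 173, 171 and 174 CPM with WNK463 (log2 fold change 0.33 ± 0.05, edgeR adjusted p = 1.3e-05). *LRRC8B* rose by less, from 23.1 ± 0.584 to 27.4 ± 1.47 CPM (log2 fold change 0.25 ± 0.08, edgeR adjusted p = 0.0097), and was not past the test without WNK463 replicate 1 (log2 fold change 0.20).

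The 3 LRRC8 genes that rose are neighbours on the plus strand of chromosome 1, with *LRRC8B* from 89524836 to 89597864, *LRRC8C* from 89633072 to 89769903 and *LRRC8D* from 89821014 to 89936611 (GENCODE 29, GRCh38), whereas *LRRC8A* lies on chromosome 9 from 128882112 to 128918039. Within a sample, *LRRC8C* TPM was 3.93, 3.89 and 4.58 times *LRRC8A* TPM in Control, against 5.81, 6.41 and 5.73 times with WNK463. *LRRC8D* TPM went from 5.67 ± 0.103 to 7.20 ± 0.512 times that of *LRRC8A*. Both ratios had an exact two-sided permutation p = 0.10, the smallest these samples allow, and were chosen after the values were seen. *LRRC8C* and *LRRC8D* share annotated exon bases with *AC093423.3* on the same strand, so the division of reads with it is uncertain. *LRRC8E* was below the default filter on low counts.

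All 3 tested anoctamin genes rose, as did 35.5% of all tested genes. *ANO8*, which tethers the endoplasmic reticulum to the plasma membrane, rose 2.59-fold from 12.5 ± 2.77 to 32.2 ± 2.79 CPM, with no overlap (log2 fold change 1.37 ± 0.12, edgeR adjusted p = 1.1e-08). It overlaps *DDA1* on the opposite strand, which did not pass (log2 fold change -0.07). *ANO10* rose from 8.94 ± 0.735 to 15.9 ± 2.42 CPM (log2 fold change 0.83 ± 0.13, edgeR adjusted p = 1.3e-05), and *ABHD5*, which it overlaps on the opposite strand, also rose, from 19.1 to 30.9 CPM (log2 fold change 0.69). *ANO6*, the calcium-activated lipid scramblase of platelets and leukocytes, had the highest TPM of the class, with 86.1, 89.4 and 90.8 CPM in Control, against 112, 109 and 109 CPM with WNK463 (log2 fold change 0.31 ± 0.05, edgeR adjusted p = 3.4e-05).

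The sodium-potassium pump is built from a catalytic alpha and a glycosylated beta subunit, and the beta subunits are described here. *ATP1B3*, the beta subunit with the higher TPM, stood at 137, 126 and 130 CPM in Control, against 116, 116 and 119 CPM with WNK463 and fell slightly on the TMM scale (log2 fold change -0.17 ± 0.05, edgeR adjusted p = 0.0066), but had a log2 fold change of -0.02 under total counts and of 0.11 with limma on log2(TPM + 1), which turns its direction. *ATP1B1* stood at 1.10, 1.17 and 1.04 CPM in Control, against 3.14, 5.35 and 4.28 CPM with WNK463 and rose 3.86-fold from a level near 1 CPM (log2 fold change 1.95 ± 0.28, edgeR adjusted p = 5.8e-06); it overlaps *NME7* on the opposite strand, which rose from 4.77 to 6.90 CPM.

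**Figure D3:**
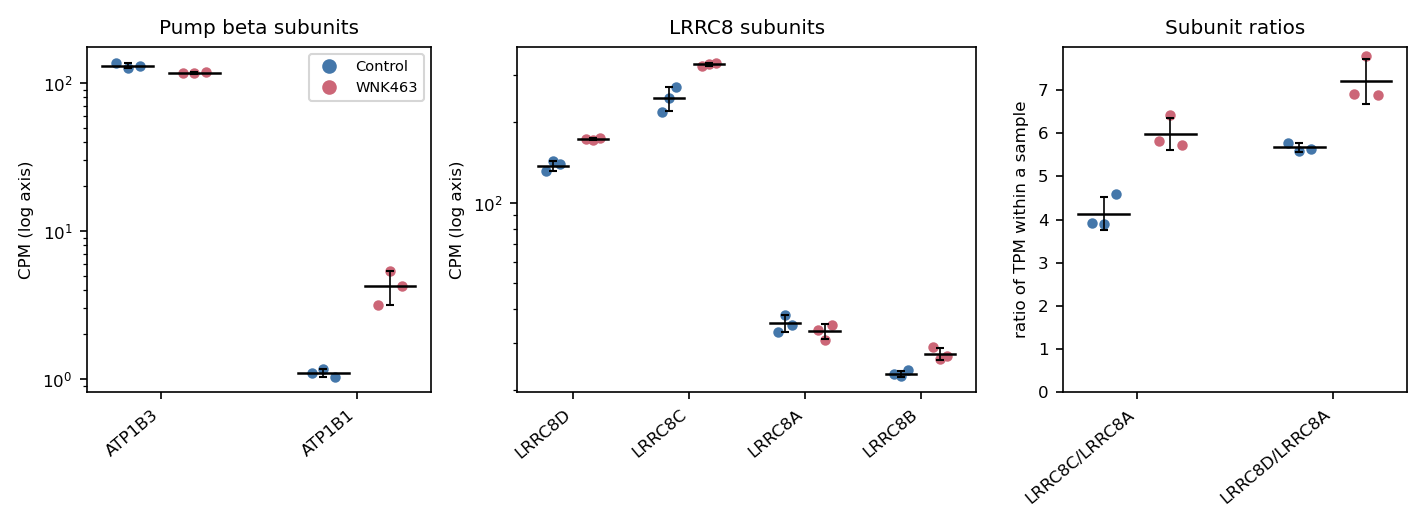
CPM per sample on a log axis of the pump beta subunits and the LRRC8 subunits, and within-sample ratios of TPM (blue Control, red WNK463; line, mean; bar, SD of 3 samples). *ATP1B1*, *LRRC8C* and *LRRC8D* are higher in all WNK463 samples, and the mean ratio of *LRRC8D* to *LRRC8A* goes from 5.67 to 7.20.

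TRP channels pass cations on heat, lipids, oxidants or stretch. *TRPM2*, which opens on ADP-ribose under oxidative stress, had the highest TPM of the class, with 253, 232 and 215 CPM in Control, against 303, 289 and 299 CPM with WNK463; it rose with no overlap (log2 fold change 0.35 ± 0.06, edgeR adjusted p = 2.1e-05). *TRPV2*, a calcium channel of myeloid cells, stood at 68.1, 62.7 and 61.6 CPM in Control, against 41.5, 38.5 and 44.0 CPM with WNK463 and fell 1.55-fold (log2 fold change -0.63 ± 0.07, edgeR adjusted p = 1.7e-07). *TRPM2* TPM was 2.44 ± 0.109 times *TRPV2* TPM in the Control samples and 4.46 ± 0.278 times in the WNK463 samples, a ratio chosen after the values were seen. *TRPM4*, a calcium-activated sodium channel, rose by 0.19 on the log2 scale, and the magnesium channel-kinase *TRPM7* did not pass (-0.13, edgeR adjusted p = 0.078), nor did *TRPV1* and *TRPV3*. *TRPC4AP*, which the symbol rule took in but which encodes a ubiquitin ligase adaptor and no channel, fell (log2 fold change -0.32 ± 0.06, edgeR adjusted p = 7.5e-05), but did not pass with limma on log2(TPM + 1), at -0.12; *MYH7B*, on the opposite strand, went from 0.0838 to 0.907 CPM. The summed class was 586 ± 19.2 CPM and 604 ± 5.77 CPM.

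Of 6 tested P2X receptor genes 3 fell and 1 rose, where 35.3% of all tested genes fell and 35.5% rose. *P2RX1*, the class member with the highest TPM, did not pass, with 56.0, 49.6 and 49.3 CPM in Control, against 56.4, 59.0 and 51.6 CPM with WNK463 (log2 fold change 0.11 ± 0.07, edgeR adjusted p = 0.17), but did under total counts, at 0.26. *P2RX4* stood at 18.5, 17.1 and 16.2 CPM in Control, against 10.3, 10.2 and 13.2 CPM with WNK463 and fell (log2 fold change -0.62 ± 0.11, edgeR adjusted p = 1.0e-04). *P2RX7*, the receptor that drives inflammasome activation, stood at 8.52, 7.89 and 7.07 CPM in Control, against 4.89, 5.17 and 3.51 CPM with WNK463 and fell as well (log2 fold change -0.78 ± 0.17, edgeR adjusted p = 5.4e-04). In both, each WNK463 value was below each Control value. With limma on log2(TPM + 1), *P2RX7* and *P2RX5* did not pass, at -0.32 and -0.48, and without the filter on mean TPM *P2RX4* did not either, at -0.32. *P2RX7* and *P2RX4* are neighbours on the plus strand of chromosome 12, *P2RX7* from 121132819 to 121188032 and *P2RX4* from 121209857 to 121234106. *P2RX5* fell 2.73-fold from 1.88 ± 0.412 to 0.685 ± 0.350 CPM (log2 fold change -1.45 ± 0.38, edgeR adjusted p = 0.0026), and the read-through gene *P2RX5-TAX1BP3*, which overlaps it on the same strand, had a log2 fold change of -0.08, so the division of reads between them is uncertain. *P2RX6* had 1, 3 and 2 counts in Control, against 11, 18 and 11 counts with WNK463, a ratio of summed counts of 6.39 (95% exact interval 2.69 to 18.5, counting error only).

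The 2 acid-sensing channel genes changed in opposite directions. *ASIC1* stood at 7.67, 7.13 and 6.10 CPM in Control, against 3.56, 4.07 and 4.92 CPM with WNK463 and fell (log2 fold change -0.74 ± 0.18, edgeR adjusted p = 0.0011). *ASIC3* had 2, 4 and 1 counts in Control, against 27, 27 and 25 counts with WNK463 and rose (log2 fold change 3.37 ± 0.48, edgeR adjusted p = 6.2e-06), the largest fold change of the tested members and one that rests on 7 counts in the Control group.

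In sum over all 105 members the level was 4284 ± 78.6 CPM in the Control samples and 4193 ± 33.9 CPM in the WNK463 samples, a log2 ratio of -0.03 under TMM, 0.12 under total counts and 0.06 in TPM. Voltage-gated potassium channels (0.77, 0.93 and 0.78), calcium-activated potassium channels (0.59, 0.75 and 0.88), calcium channels (0.56, 0.71 and 0.62), anoctamins (0.52, 0.67 and 0.74), LRRC8 (0.35, 0.50 and 0.47) and CLC genes (0.31, 0.46 and 0.41) were higher with WNK463 on all 3 scales. Potassium channel accessory subunits (-0.45, -0.30 and -0.43) were lower on all 3. CLIC proteins were lower under TMM (-0.20) but near 0 under total counts (-0.05) and in TPM (-0.01, with 966 ± 26.3 and 961 ± 19.4 TPM). TRP channels were slightly above 0 on all 3 scales (0.05, 0.20 and 0.15), with 586 ± 19.2 and 604 ± 5.77 CPM under TMM. Tandem-pore channels, P2X receptors and acid-sensing channels changed sign between scales. These class sums are descriptions without a test.

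**Figure D4:**
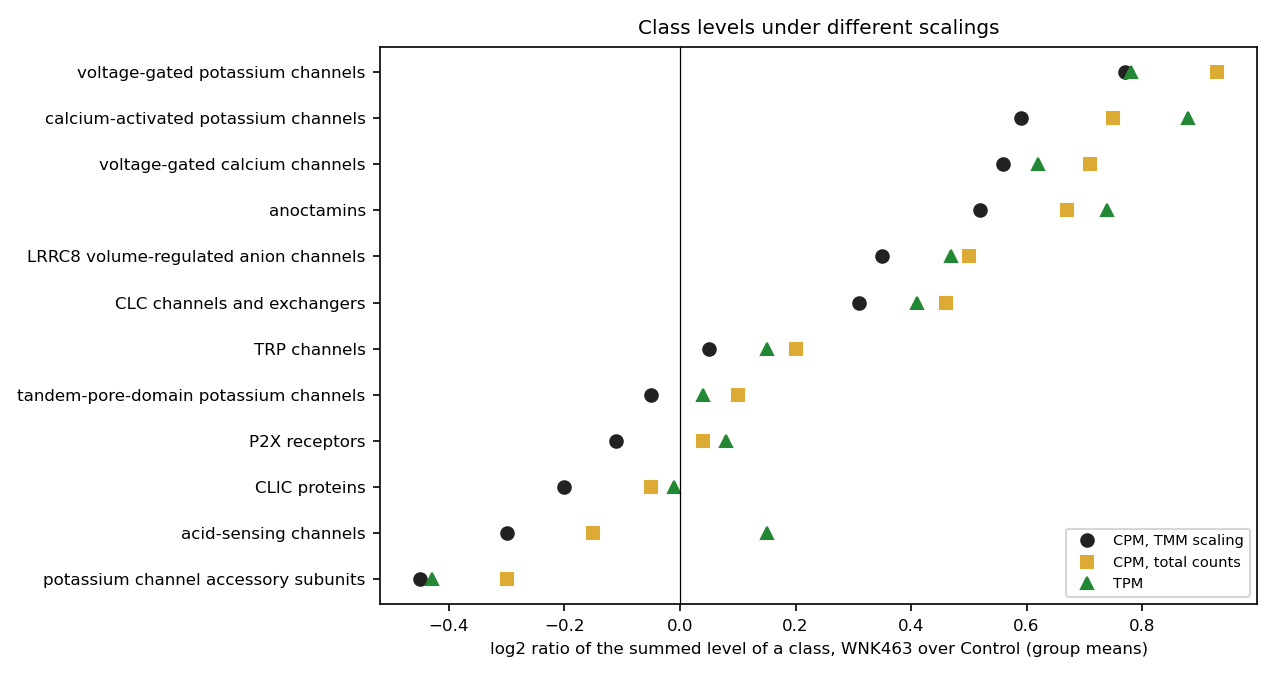
Log2 ratio of the summed level of each class, WNK463 over Control group means, for the channel classes, without the sodium and inward-rectifier channels, which had few counts, under TMM scaling of CPM (circles), total count scaling (squares) and TPM (triangles). The upper 6 classes lie to the right of 0 on every scale, as do the TRP channels by less. The lowest class lies to the left of 0 on every scale, while the CLIC proteins come near 0 in TPM (-0.01). The acid-sensing channels go from -0.30 to 0.15.

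The 32 members below the filter had sums of 10 to 55 counts over the 6 samples and at most 21 counts in a sample, and were not tested after the default filter on low counts. They included *KCNA5*, *KCNA6*, *KCNC1*, *KCND3*, *KCNG2*, *KCNS1* and *KCNV2* among voltage-gated potassium genes, *KCNJ1*, *KCNJ10*, *KCNJ11*, *KCNJ13* and *KCNJ15*, *KCNK7*, *KCNK9* and *KCNK12*, *KCNN3*, *KCNAB1* and *KCNE2*, the sodium channel genes *SCN11A*, *SCN3B* and *SCN4B*, *CACNA1C*, *CACNB1*, *CLIC3*, *LRRC8E*, *ANO7*, *TRPC5*, *TRPM5* and *TRPM8*. *KCNA5* had 1, 5 and 4 counts in Control, against 0, 0 and 0 counts with WNK463. Set against a floor of 3 counts over the WNK463 group, its Control level was 3.48-fold higher, a value that depends on the chosen floor and is not a lower limit. *KCNAB1* had 4, 1 and 4 counts in Control, against 14, 21 and 9 counts with WNK463, and *KCNS1* had 20, 4 and 9 counts in Control, against 4, 4 and 1 counts with WNK463. In alternatives that kept all 105 members, *KCNAB1*, *KCNJ13* and *KCNN3* passed as higher with edgeR on genes with a sum of at least 10 counts, with DESeq2 and with limma on log2(TPM + 1) without the filter on mean TPM, while *KCNA5* passed as lower with edgeR and DESeq2, and *KCND3* and *KCNS1* with edgeR. The voltage-gated sodium channel class held no member past the default filter, and none of its members passed in those alternatives.

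Outside these symbols, 3 lists of other ion genes were read from the same fit. Of 23 tested genes for calcium stores, entry and pumps, 11 rose and 5 fell, against 14 and 3 under total counts. Over all tested genes 35.5% rose and 35.3% fell, against 46.1% and 26.1% under total counts. The endoplasmic reticulum calcium sensor *STIM2* rose from 16.6 ± 1.30 to 30.4 ± 0.385 CPM (log2 fold change 0.87), while *STIM1* did not pass (-0.01). The calcium release channels *ITPR2* and *ITPR3* went opposite ways, from 47.5 ± 5.32 to 75.6 ± 2.87 CPM and from 19.1 ± 2.92 to 7.62 ± 0.285 CPM (log2 fold changes 0.67 and -1.32). Their more abundant relative *ITPR1* rose slightly, from 223 ± 1.07 to 246 ± 15.5 CPM (log2 fold change 0.14, edgeR adjusted p = 0.017). Both abundant pumps that fill the stores fell, *ATP2A2* from 482 ± 11.7 to 355 ± 9.64 CPM and *ATP2A3* from 285 ± 18.2 to 200 ± 9.94 CPM, and the plasma membrane pump *ATP2B1* rose by 0.61 on the log2 scale.

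Of 23 tested genes in a list of other channels, 8 rose and 7 fell, against 11 and 5 under total counts. These counts were near the shares of all tested genes, 35.5% and 35.3%, and 46.1% and 26.1% under total counts. The mechanosensitive channel *PIEZO1* fell from 329 ± 15.3 to 183 ± 9.33 CPM (log2 fold change -0.85 ± 0.05, edgeR adjusted p = 1.1e-10), with 337, 338 and 311 CPM in Control, against 191, 172 and 185 CPM with WNK463. *PIEZO2* had 54 counts over the Control group and 3 over the WNK463 group, a Control over WNK463 ratio of 18.8 (95% exact interval 6.09 to 93.8, counting error only). The proton channel *HVCN1*, which supports the oxidative burst of phagocytes, rose from 53.7 ± 1.29 to 77.6 ± 2.14 CPM (log2 fold change 0.53 ± 0.06, edgeR adjusted p = 1.7e-07). Of 6 tested pump partners and sodium-proton exchangers 2 rose and 1 fell, with log2 fold changes of 1.09 for *FXYD6* and -0.36 for *FXYD5*. Under total counts 2 rose and 0 fell, with *FXYD5* at -0.20.

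The cation-chloride cotransporters that WNK kinases act on through SPAK and OSR1 were read as well. *SLC12A2* (NKCC1), the sodium-potassium-chloride cotransporter, rose from 9.98 ± 1.84 to 18.0 ± 1.33 CPM (log2 fold change 0.85 ± 0.12, edgeR adjusted p = 7.6e-06). The potassium-chloride cotransporter gene *SLC12A4* fell from 29.4 ± 3.01 to 17.2 ± 1.04 CPM (log2 fold change -0.78 ± 0.09, edgeR adjusted p = 6.6e-07). *WNK1* mRNA did not pass, with 293, 306 and 312 CPM in Control, against 349, 304 and 318 CPM with WNK463 (log2 fold change 0.09 ± 0.05, edgeR adjusted p = 0.12).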

How the data were processed

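RNA was measured as mRNA-enriched RNA-seq in 3 Control and 3 WNK463 samples of MV4-11 cells, grouped by the labels. The authors deposited estimated counts per gene, given as whole numbers (62 values have a count of 0 beside a TPM above 0), and the authors also gave TPM per gene and sample. The submitters' processing notes name fastp, Bowtie2, HISAT2, StringTie, RSEM, DESeq2 and edgeR and the build GRCh38, without roles or versions. The deposited table also holds the authors' fold changes and p-values, which were not used. Total counts were 14915745 to 17411780, which sets the counting error of low genes.

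Counts were used as deposited, scaled by TMM, filtered with edgeR's default on low counts (11973 genes left) and tested with edgeR 4.0.16 (quasi-likelihood test, no replicate block) in R 4.3.3, with Benjamini-Hochberg adjustment over all tested genes. The standard error of a log2 fold change was taken as its size over the square root of F. CPM use TMM library sizes; errors of CPM and TPM are SDs of 3 samples. The procedure was tested on simulated data. Common variation between replicates was 5.21%.

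The members, classes, lists and tests were chosen with earlier results of these data known. By rule, named were all tested pump and LRRC8 genes, in other classes the 3 most abundant tested members and up to 4 members per direction with the smallest p at a change of at least 2-fold; members outside this rule (such as *TRPV2* and *CLCN5*) and the ratios and printed start regions were chosen after their values were seen. Some genes that the rule names are not reported here. Gene coordinates are those of GENCODE 29 matched by Ensembl identifier; start regions are RefSeq's, matched by symbol for 58 of 73 tested members, and cover the 250 bases upstream. Motifs were searched on both strands. Same-numbered replicates were checked for pairing (correlations of deviations 0.0188, -0.00706 and -0.048 over genes) and were treated as unpaired. Alternatives were DESeq2 1.42.0, limma 3.58.1 on log2(TPM + 1) and log2(TPM + 0.1), total count and RLE scaling, other filters, a 1.5-fold limit, the replicate block and each sample left out. No cause of a change was tested.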

Additional observations from a re-analysis of the deposited data

How the results depend on the processing

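For the members, 32 rose and 18 fell, 11 and 5 of them at least 2-fold. Lower members numbered 7 with limma on log2(TPM + 0.1) and on log2(TPM + 1), and 9 with log2(TPM + 1) without the filter. Members at least 2-fold higher numbered 4 where 10 counts were required in every sample (57 members tested, which removes genes low in a group), 7 and 7 with limma on log2(TPM + 0.1) and log2(TPM + 1), and 21 at a 1.5-fold limit. Members at least 2-fold lower numbered 9 when all 105 were tested, 1 with limma in each of the 3 settings and 13 at a 1.5-fold limit. Under total counts 2 of 73 tested members were at least 2-fold lower, against 3.83% of all tested genes. DESeq2 gave 33 higher, 15 lower, 14 and 5. Except under total counts, the called shares of all tested genes in the alternative settings of this section are not given. Shifts in these counts therefore cannot be read as particular to the members. With a sample left out, counts were 28 to 33 higher, 16 to 17 lower, 12 to 13 at least 2-fold higher and 5 to 7 at least 2-fold lower; 40 of 50 members that passed did so in all 6 fits, as did 14 of 16 at least 2-fold changed (not *KCNG1* and *KCNK5*). Without the 4 members that encode no channel, 17 fell and the other counts were the same; this was chosen after seeing the data. The replicate block changed no count, at 32, 18, 11 and 5, and the pairing check did not pair the numbers. Reversed were *ATP1B3*, with 0.11 in the 3 limma settings, and the summed acid-sensing channels, with 0.15 in TPM. Over 752 combinations of named member and setting, 694 kept direction and side of the threshold, 33 fell below it, 22 passed it newly and 3 reversed; over 135 class sums 112 moved by less than 1 SD, 22 by more and 1 reversed. Among the 22 were the tandem-pore sums (0.10 under total counts and 0.04 in TPM) and the P2X sums (0.04 and 0.08), which also changed sign, from values within 1 SD of 0. The cause of these differences was not tested. Levels below about 1 CPM rest on few counts, and the depth limits them.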
